A study of Rattus norvegicus with 34 samples.

Results

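Old and young untreated Brown Norway rats were compared by the RNA of their livers. The comparison took the Brown Norway arrays labelled as 24-month and as 4-month controls, 3 male rats at each age and 1 array per rat, which are 6 of the 34 arrays of the study. Both groups are inbred male Brown Norway rats with no treatment, housed individually, and they differ in age alone as far as the labels say. The study asked how genes for enzymes that process foreign compounds change with age in male rats. Its other Brown Norway arrays hold 3 untreated controls of 12 months and 9 rats of 4, 12 and 24 months (3 at each age) given the solvent toluene by oral gavage, 1 g/kg, 4 h before necropsy. Its F344 rats, another inbred strain, were untreated males of 6, 11, 18 and 24 months, 4 at each age, and came from their supplier shortly before necropsy.

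The liver is built mainly of hepatocytes, which make plasma proteins, break down amino acids and modify drugs and hormones. Its resident macrophages, the Kupffer cells, line the sinusoids and clear particles and old red cells from blood. Interferon, released by cells that sense viruses or displaced nucleic acid, switches on a common set of genes through shared promoter elements. In rats many liver genes differ between the sexes under the control of the growth hormone pattern, and in ageing males of some strains this male pattern is known to weaken.

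The median signal per Brown Norway array was 35.5 to 38.2, and the ratio of 3' to 5' GAPDH probe sets, a sign of RNA integrity, was 0.774 to 0.944. With 3 rats in a group, precision is limited by their number. Signals under 32 were raised to 32, called the floor here, and group means with their SD are of floored signals. Some arrays stood apart from their group. Replicate 2 of the 4-month controls correlated best with replicate 2 of the 24-month controls (r = 0.973 over the genes tested) and with its own group at 0.951 to 0.960. In that 4-month array the iron-binding acute-phase protein Lcn2 had a signal of 3030, against 45.3 and 43.1 in replicates 1 and 3, and the protease inhibitor A2m had 1046 against 42.6 and 52.6. Lcn2 was also high in replicates 1 and 2 of the 24-month controls, at 3627 and 1634, against 143 in replicate 3. Among markers of cell types, the 5 measured hepatocyte markers had summed signals of 31180 to 31934 at 4 and 31447 to 35003 at 24 months. The 3 measured markers of natural killer cells (Gzmk, Klrd1, Nkg7) lay at the floor on the 6 arrays. So did Cd3e among 3 T-cell markers and Cd79b among 4 markers of B and plasma cells. The same held for Des among 5 stellate-cell markers and Krt19 among 2 bile-duct markers.

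Between 4 and 24 months 21 of 8586 genes tested in limma passed at a Benjamini-Hochberg adjusted p under 0.05, or 0.245%. Of these 15 were higher (0.175%) and 6 lower (0.0699%) in old rats, and 13 changed at least 2-fold. The genes that rose include an immunoglobulin gene, macrophage genes and interferon-induced genes. Those that fell include enzymes of amino acid breakdown, glutathione conjugation and steroid oxidation. In each of the 21 the 3 old arrays lay entirely above or entirely below the 3 young ones. The 21 were picked by the test on these same arrays, so their separation is no further support. Over all genes tested, 6.72% were higher and 6.02% lower without overlap, and 11.6% had an unadjusted p under 0.05. The adjusted p-values rest on the fit over 18 Brown Norway arrays. With only the 6 arrays compared in the fit, 0 genes passed in limma and 701 had an unadjusted p under 0.05, and without replicate 3 of the 4-month controls 0 passed and 786 had one. The count was 7 without replicate 1 and 12 without replicate 2 of the 4-month controls, and 6, 134 and 49 without replicates 1, 2 and 3 of the 24-month controls.

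**Figure D1:**
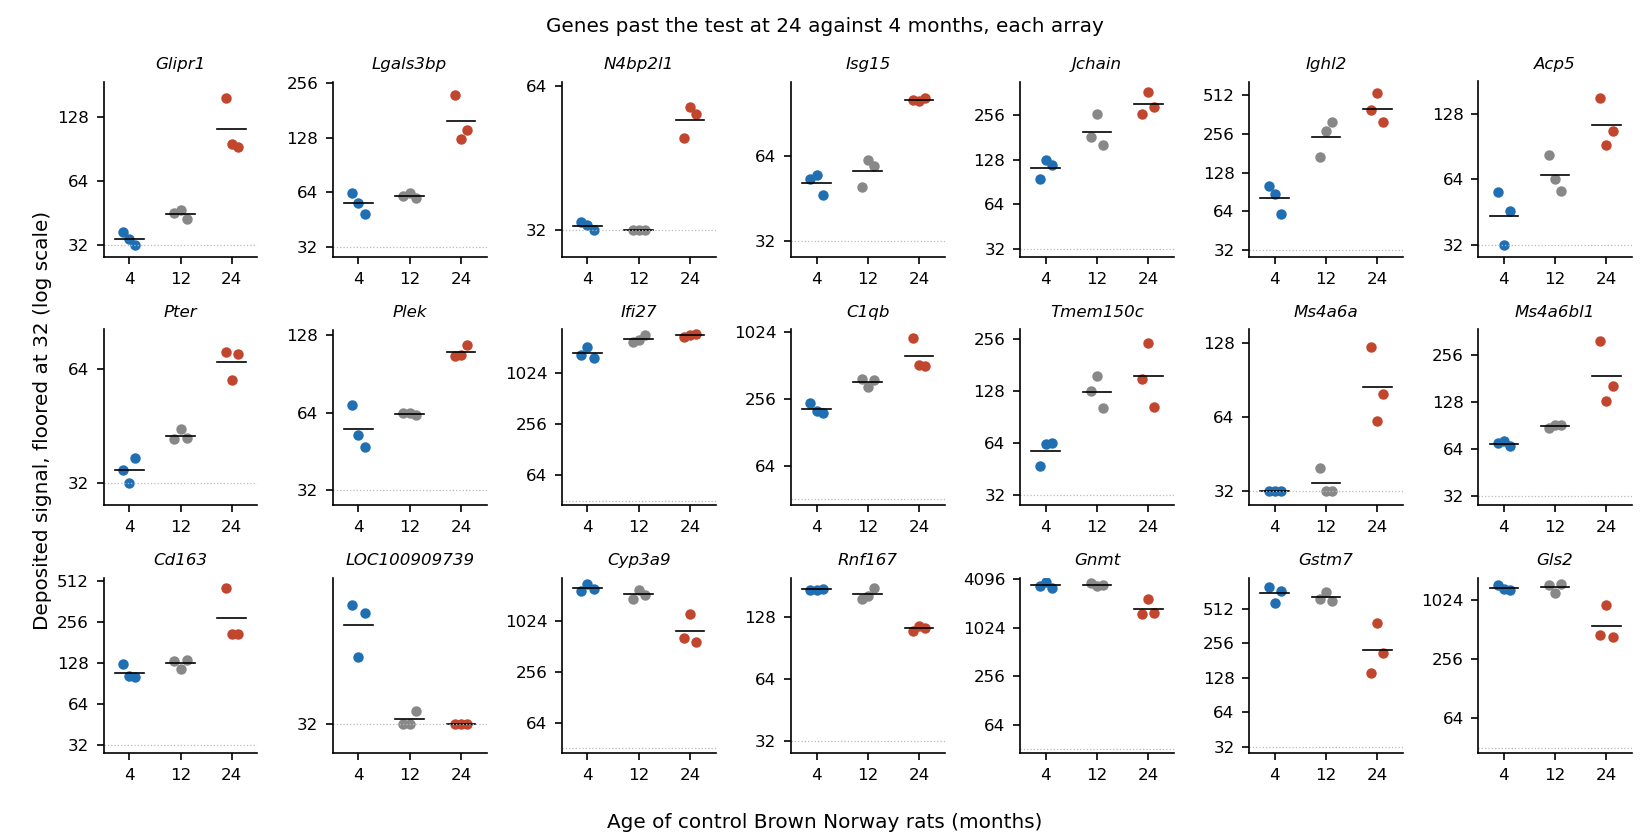
Signal of the 21 genes that passed, 1 panel per gene, on a log axis against age in months of control Brown Norway rats; points are single arrays, bars the geometric mean of 3 arrays, and the dotted line the floor of 32. The 24-month points lie beyond all 4-month points in each panel, and replicate 1 of 24 months, drawn leftmost, is the highest in Glipr1, Lgals3bp, Acp5, C1qb, Ms4a6a, Ms4a6bl1 and Cd163.

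Some genes of antibody-producing cells rose. The immunoglobulin gene Ighl2 had signals of 99.96, 87.5 and 61.2 in the 4-month rats and 391, 536 and 317 in the 24-month rats. The lowest old rat was above the highest young one, and the group means of 82.9 ± 19.8 and 415 ± 112 (SD, n = 3) gave a 4.99-fold rise (log2 fold change 2.32, SE 0.36). Jchain, the chain that joins IgM and dimeric IgA, read 94.8, 127 and 118 at 4 and 258, 366 and 292 at 24 months (log2 fold change 1.43, SE 0.22, limma adjusted p = 0.0145). Another, weaker probe set of Jchain was also higher without overlap but did not pass when taken singly (log2 fold change 1.07, limma adjusted p = 0.101). The 12-month controls already read 169, 269 and 318 for Ighl2 and 181, 261 and 162 for Jchain, above each 4-month rat. Mzb1, a chaperone of the antibody-secreting cell, was at the floor in the 3 young rats and read 40.8, 52.4 and 44.0 in old ones, without passing (limma adjusted p = 0.0819). Of 6 tested genes of the B-cell and plasma-cell list 2 rose and 0 fell, where 0.175% of all genes rose and 0.0699% fell. The median log2 fold change of the list was 0.94. The list also holds Xbp1, at -0.32, Tnfrsf17, at -0.06, and Cd74, which is shared with other antigen-presenting cells.

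Macrophage genes were higher in old livers, most of all in 1 of the 3 rats. C1qb, a chain of the first complement component made by Kupffer cells, had signals of 235, 197 and 189 at 4 months and 910.2, 522 and 510.1 at 24 months. The scavenger receptor Cd163, which takes up haemoglobin, read 125, 103 and 101 in young and 458, 211 and 211 in old rats. In both genes replicate 1 of 24 months stood well above its group and the other two old rats still lay above the young range. The next 4 genes are not in the macrophage list. Acp5, the tartrate-resistant acid phosphatase of macrophages and osteoclasts, rose at least 2.63-fold (56.0, 32 and 45.5 against 151, 91.8 and 106). Plek, or pleckstrin, a protein kinase C substrate of leukocytes and platelets, read 68.6, 52.5 and 47.2 against 107, 107 and 117. Its 3 old rats were nearly alike, unlike those for C1qb and Cd163. Of the membrane proteins of the MS4A family, Ms4a6a was at the floor in the 3 young rats and read 123, 61.6 and 79.2 in old ones. That is at least 2.64-fold higher (log2 fold change 1.40, SE 0.26, limma adjusted p = 0.0328). Its relative Ms4a6bl1 rose from 69.5 ± 2.5 to 203 ± 98.4 (SD, n = 3).

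Of 25 tested genes of the macrophage list 24 had a positive log2 fold change (49.2% of all genes did) and 18, or 72%, were higher without overlap, against 6.72% of all genes. Of these 25, 2 rose by the test, C1qb and Cd163. The list's median log2 fold change was 1.09 where that of all genes was 0.00, and it was 0.73 without replicate 1 of 24 months. Among the other members, the lysosomal Cd68 read 118, 115 and 101 against 624, 241 and 214, and the Kupffer-cell lectin Clec4f 638, 516 and 529.7 against 1606, 909 and 1157. Aif1, a marker of activated macrophages, missed the threshold (log2 fold change 1.35, limma adjusted p = 0.058). Outside the list, the Fc receptor Fcgr3a had a log2 fold change of 1.32 and the same adjusted p, and the glycoprotein Gpnmb read 138, 92.8 and 91.7 in young rats and 3184, 351 and 368 in old ones. The 7 measured Kupffer-cell and macrophage markers had a summed signal of 1646 to 2069 at 4 and 3277 to 6145 at 24 months, and none of them lay at the floor on all 6 arrays. In whole liver more cells of a type and more RNA per cell cannot be told apart. The summed signals of other markers did not all stay level. That of 2 red-cell markers was 5010 to 5622 at 4 and 1646 to 4723 at 24 months, and that of 5 stellate-cell markers 903 to 1187 and 341 to 672. The stellate-cell markers did not move alike. Their log2 fold changes were -1.36 for Col3a1, -0.59 for Lrat, -0.04 for Col1a1 and 0.22 for Acta2, and Des lay at the floor. The 21 tested genes of the wider stellate list went both ways, with 8 positive and 12 negative values, 3 higher and 2 lower without overlap and a median log2 fold change of -0.04. The 4 endothelial markers summed to 1075 to 1489 and 1569 to 1833, while of 12 tested genes of the wider endothelial list 5 were positive and 7 negative, with a median of -0.02. The part of these shifts in the results was not tested.

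MHC class II genes, which present antigen on macrophages, dendritic cells and B cells, were high in that same old rat. The class II chain RT1-Da read 228, 167 and 196 at 4 months and 2203, 246 and 264 at 24 months, and the invariant chain Cd74 365, 255 and 247 against 2552, 460.2 and 346. Replicate 1 of 24 months was thus far above the other old rats, which were close to the young range. Of 7 tested members 7 had positive values (49.2% of all genes did) and 3, or 42.9%, were higher without overlap (6.72% of all genes). In limma 0 passed and 4 had an unadjusted p under 0.05, against 11.6% of all genes. The median log2 fold change of 1.38 became 0.38 without replicate 1 of 24 months.

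The leading interferon-induced genes were higher in each of the 3 old rats. Isg15, a ubiquitin-like protein, had signals of 53.04, 54.7 and 46.6 at 4 and 102, 100.5 and 103 at 24 months. Ifi27, a membrane protein of mitochondria and the nuclear envelope, read 1689, 2083 and 1538 against 2780, 2886 and 2962 (1.64-fold, log2 fold change 0.71, SE 0.12, limma adjusted p = 0.0236). Lgals3bp, a secreted glycoprotein that binds galectins, read 63.6, 56.2 and 48.3 against 220.2, 126 and 140.4. For Isg15 and Ifi27 the old rats were close to one another, and for Lgals3bp replicate 1 was again the highest. Of 33 tested genes of the interferon list 3 rose and 0 fell, where 0.175% of all genes rose and 0.0699% fell. Positive values were found in 28 (49.2% of all genes), and 11, or 33.3%, were higher without overlap, against 6.72% of all genes. The median log2 fold change of the list was 0.39. The immunoproteasome subunit Psmb8 (286, 272 and 225 against 796, 393 and 508) and Irf7, the factor that amplifies interferon production (60.7, 50.03 and 38.9 against 98.5, 88.4 and 72.8), each had a limma adjusted p of 0.0633. Oas1a, which senses double-stranded RNA, read 32, 34.7 and 32 in young rats and 43.9, 54.1 and 38.6 in old ones.

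Promoters of interferon-induced genes often carry the interferon-stimulated response element. RefSeq promoters of build GRCr8, from 250 bases before to 50 after the start site, were searched on both strands for its core, GAAANNGAAA. It was present in 19 of 27 promoters of the interferon list that could be matched, or 70.4%, against 223 of 7239 promoters of tested genes, or 3.08%. Of 11 matched genes that rose 2 hold it, Ifi27 and Lgals3bp, and of 5 matched genes that fell 0 do. A match is a description of the reference sequence and not a measured binding site. Shown here, to let the element be seen in 2 genes that rose and in 2 members of the list that were higher without overlap but did not pass, are stretches upstream of the start site, 5′ to 3′ on the gene's strand, with matches to the core on either strand in capitals. Those of Ifi27 (chr6:128355132-128355251, plus strand), Lgals3bp (chr10:104127849-104127928, minus), Irf7 (chr1:205800044-205800123, minus) and Oas1a (chr12:41330396-41330465, plus) read:
Ifi27: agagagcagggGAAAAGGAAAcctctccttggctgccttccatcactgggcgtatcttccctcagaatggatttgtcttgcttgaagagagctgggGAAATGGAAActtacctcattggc
Lgals3bp: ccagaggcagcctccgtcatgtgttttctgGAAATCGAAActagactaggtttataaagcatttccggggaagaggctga
Irf7: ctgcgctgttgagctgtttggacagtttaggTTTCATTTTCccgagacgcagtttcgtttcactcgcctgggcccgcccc
Oas1a: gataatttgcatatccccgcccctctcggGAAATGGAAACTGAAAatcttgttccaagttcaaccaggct
Ifi27 has the core at 2 places, beginning 169 and 84 bases before the start site, and Lgals3bp at 1, beginning 50 bases before it. In Irf7 the match lies on the opposite strand, and in Oas1a 2 matches overlap.

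Another 4 genes rose. Glipr1, a secreted protein of the CAP family, had signals of 36.7, 34.1 and 32 at 4 and 157, 95.7 and 92.4 at 24 months, at least 3.26-fold higher, and gave the smallest p of all genes (log2 fold change 1.70, SE 0.22, limma adjusted p = 0.0081). Tmem150c, a membrane protein, read 47.5, 63.6 and 64.3 against 150.1, 243 and 103. Pter, the phosphotriesterase-related protein, rose at least 1.93-fold (34.7 ± 2.67 to 66.9 ± 6.24, SD, n = 3). N4bp2l1 was 33.1, 32.8 and 32 in young and 49.8, 57.6 and 55.7 in old rats, so that its young rats lay at the floor or just above it. In all, 5 of the 15 genes that rose had at least 1 young rat at the floor, which makes their fold a lower bound.

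Among the genes that fell, Cyp3a9, a steroid-oxidising cytochrome P450 that is more abundant in female than in male rat liver, had the largest change. Its signals were 2267, 2786 and 2408 at 4 and 647, 1216 and 581 at 24 months, 3.22-fold lower (log2 fold change -1.68, SE 0.28, limma adjusted p = 0.0236). The mu-class glutathione transferase Gstm7 read 801, 579.8 and 737 against 142, 383 and 209.5, and fell 3.11-fold. Gls2, the liver glutaminase that feeds ammonia to the urea cycle, read 1456, 1337 and 1292 against 456, 909.9 and 431. Gnmt, the glycine methyltransferase that disposes of surplus methyl groups, read 3407, 3731 and 3222 against 1509, 2312 and 1538. In these 4 genes replicate 2 of 24 months was the old rat nearest to the young ones. The ubiquitin ligase Rnf167 fell by less but evenly, from 173 ± 1.1 to 112 ± 3.02 (SD, n = 3). The pseudogene LOC100909739 read 54.6, 43.3 and 52.5 in young rats and lay at the floor in the 3 old ones, at least 1.56-fold lower.

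Genes of amino acid breakdown were lower as a group. Of 43 tested members of the urea cycle and amino acid list 41 had negative log2 fold changes and 20, or 46.5%, were lower without overlap, against 6.02% of all genes, while 2 passed, Gnmt and Gls2. The median was -0.39. Enzymes of histidine breakdown were among them. Histidase, Hal, read 892, 645 and 801 against 123, 383 and 358 (log2 fold change -1.59, limma adjusted p = 0.0633), and urocanase, Uroc1, 2348, 2029 and 2235 against 815, 1586 and 1382 (-0.86, adjusted p = 0.121). Bhmt, which remethylates homocysteine, read 5674, 5923 and 5213 against 1264, 3708 and 2249. Serine dehydratase, Sds, varied widely in both groups, at 402, 1296 and 600.3 against 32, 410.4 and 32. Its relative Sdsl, in contrast, read 60.4, 59.0 and 58.4 in old rats and 129, 83.4 and 100.4 in young ones. The mean log2 signal of the list, relative to the 4-month controls, was -0.75, -0.17 and -0.69 in the 3 old rats, so that replicate 2 of 24 months again lay nearest to the young ones.

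**Figure D2:**
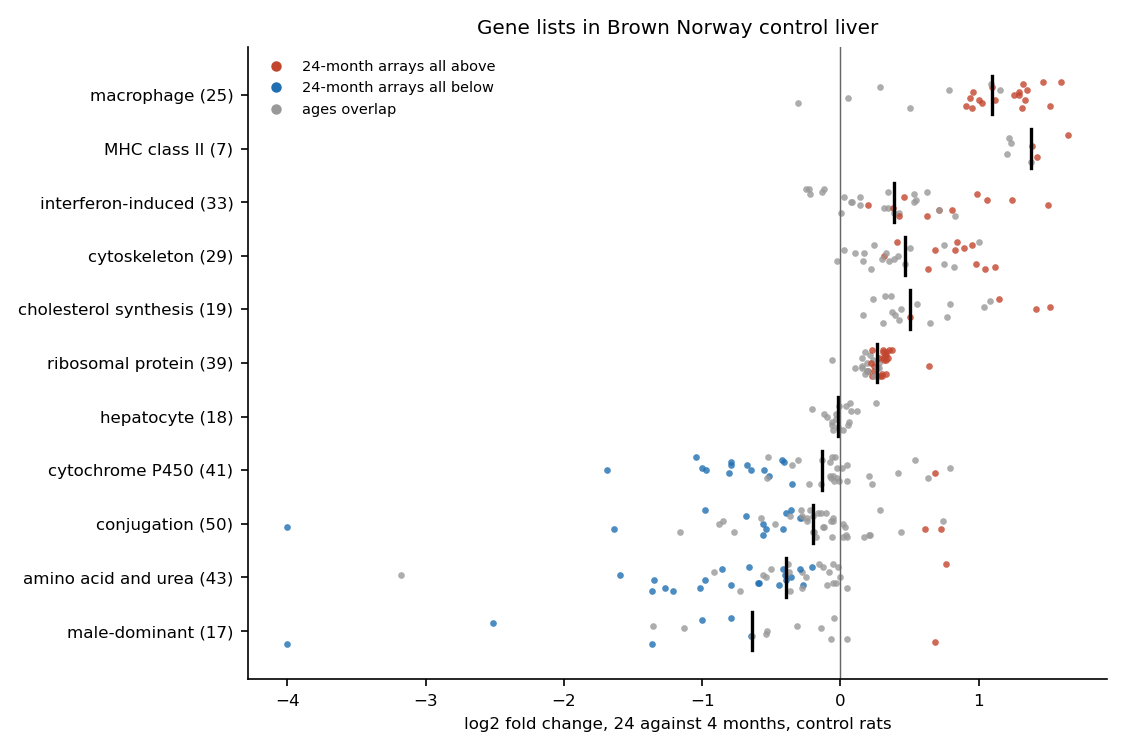
Log2 fold change of 24 against 4 months in control rats for the tested members of 11 gene lists, with the number of members in brackets; points are genes, coloured by whether the old arrays all lie above (red), all below (blue) or overlap with (grey) the young ones, and black bars are medians. The macrophage and MHC class II lists lie to the right (medians 1.09 and 1.38), the amino acid and male-dominant lists to the left (-0.39 and -0.64), and hepatocyte genes at 0 (-0.02).

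Of the enzymes the study is about that were tested under 1 gene symbol, few passed. Probe sets without a single gene symbol did not enter these counts, and Cyp2b1 and Cyp2b2 are not among the P450s tested. Among 41 cytochromes P450, 1 fell (Cyp3a9) and 0 rose, where 0.0699% of all genes fell and 0.175% rose. Without overlap 14, or 34.1%, were lower (6.02% of all genes) and 1 was higher (6.72% of all genes). The median log2 fold change of the P450s was -0.13. Cyp1a2, which oxidises caffeine and aromatic amines, read 3994, 4818 and 3775 against 2040, 2871 and 3027 (log2 fold change -0.68, limma adjusted p = 0.103). Cyp2d4 (log2 fold change -0.97) and the retinoic acid hydroxylase Cyp26b1 (-1.04) were lower without overlap and did not pass. Among 50 conjugating enzymes 2 fell, Gstm7 and Gnmt, the latter also a member of the amino acid list. Without overlap 11, or 22%, were lower, against 6.02% of all genes, and 2 were higher. The lowest log2 fold change of all genes tested was that of the methyltransferase Inmt, at -4.00. Its signals were 1496, 2133 and 1765 at 4 and 113, 379 and 32 at 24 months, at least 16.0-fold lower, and the wide spread left a limma adjusted p of 0.0831. Of 75 other phase 1 enzymes and of 35 drug and bile acid transporters 0 passed in limma. The medians were -0.07 and 0.00 (-0.18 and -0.13 without replicate 2 of the 4-month controls). In these lists 11 and 5 genes had an unadjusted p under 0.05, where 11.6% of all genes had one. Lower without overlap were 9 and 3, or 12% and 8.57%, against 6.02% of all genes, while 3 and 2 were higher.

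Ribosomal protein genes were slightly higher. Of 39 tested, 38 had positive log2 fold changes and 23, or 59%, were higher without overlap, against 49.2% and 6.72% of all genes. The median was 0.27 (0.16 without replicate 1 of 24 months). In limma 0 passed and 16 had an unadjusted p under 0.05, against 11.6% of all genes. Rpl3 read 2867, 2830 and 2591 against 4266, 3453 and 3083. Of 29 genes of the actin and tubulin cytoskeleton 28 were positive (49.2% of all genes). Without overlap 11, or 37.9%, were higher (6.72% of all genes). Their median was 0.47, and 0.28 without replicate 1 of 24 months. Actg1, the cytoplasmic gamma actin, read 2603, 2263 and 2311 against 4323, 5364 and 3294 (limma adjusted p = 0.058). Of 19 genes of cholesterol synthesis and uptake 19 were positive (49.2% of all genes). Without overlap 4, or 21.1%, were higher (6.72% of all genes). Their median was 0.50, and 0.19 without replicate 3 of 24 months. Replicate 3 of 24 months was high there: Idi1, an enzyme of isoprenoid synthesis, read 379.5, 384 and 285 against 585, 445 and 1724. The 18 hepatocyte genes had a median of -0.02 and 0 without overlap. Albumin, Alb, read 7691, 7419 and 7527 against 8296, 7640 and 7910. Of 21 acute-phase genes 1, or 4.76%, was higher without overlap, against 6.72% of all genes. Their median was 0.05, although their mean per array ranged from -0.38 to 0.75 in young and from -0.35 to 0.41 in old rats.

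The 12-month controls were used as a description, with no test of their own. For 18 of the 21 genes their mean log2 signal lay between those of 4 and 24 months. For 11 genes the 12-month rats overlapped with the 4-month and not with the 24-month rats, among them Isg15 (49.8, 62.2 and 59.2), Lgals3bp, Cd163, Cyp3a9, Gstm7, Gls2 and Gnmt (3639, 3351 and 3486). For 5 they overlapped only with 24 months: Ighl2, Jchain, Ifi27 (2398, 2501 and 2909), Tmem150c (127, 155 and 103) and LOC100909739. For the other 5 they lay apart from both ages, as for C1qb (383, 329 and 380.3) and Glipr1 (45.4, 46.8 and 42.5). By group of genes, the mean log2 signal of the amino acid list at 12 months was 0.05, 0.07 and 0.02 above that of the 4-month controls, and that of the macrophage list 0.32, 0.21 and 0.37 above it.

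**Figure D3:**
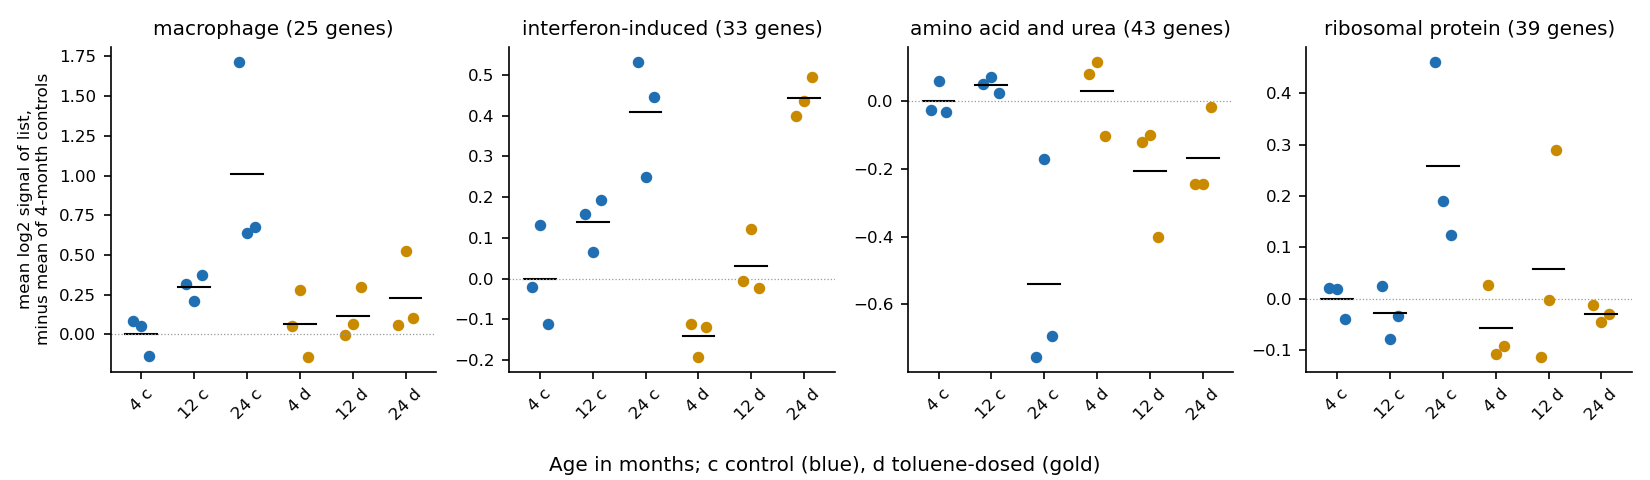
Mean log2 signal of 4 gene lists on each Brown Norway array, relative to the mean of the 4-month controls, by age in months and treatment; points are arrays and bars group means. The 24-month controls are the highest group for macrophage genes (replicate 1 at 1.72) and the lowest for amino acid genes, while for interferon genes the 24-month control and dosed rats are both high.

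The toluene-dosed rats gave the same age comparison in 6 other animals. Of the 21 genes 20 had the same sign there, and 12 were again separated without overlap, of which N4bp2l1 in the opposite direction. Over all genes 8.19% were higher and 6.78% lower without overlap in dosed rats. Of 8586 genes 23, or 0.268%, passed in dosed rats, and 6, 8 and 6 without replicates 1, 2 and 3 of 4 months and 11, 14 and 8 without those of 24 months. Among the 21, these were Isg15, Ifi27, Lgals3bp and Glipr1. Isg15 read 37.9, 53.9 and 46.3 in dosed rats of 4 and 128.5, 119 and 153 of 24 months (log2 fold change 1.54, SE 0.14, limma adjusted p = 5.22e-05). Ifi27 read 1935, 1843 and 2018 against 3577, 3583 and 4025. Of 33 interferon genes 33 were positive in dosed rats, with a median of 0.44. Cyp3a9 read 2398, 2490 and 2574 against 675, 1444 and 931, and did not pass (adjusted p = 0.0739). The macrophage, amino acid and ribosomal lists had medians of 0.13, -0.07 and 0.02 in dosed rats. C1qb read 266, 373 and 233 against 258, 436 and 247, so its dosed groups overlapped. The difference between its age effects, dosed minus control, was -1.50 on the log2 scale (SE 0.39), with a limma adjusted p of 0.969, so the difference itself did not pass.

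The test of a different age effect in dosed and control rats called 1 gene of 8586, or 0.0116%. This was Scd, the desaturase that makes monounsaturated fatty acids. It was at the floor in the 24-month controls and the 4-month dosed rats and read 36.2, 32 and 32 in the 4-month controls, but 425, 286 and 905 in dosed rats of 24 months. Its log2 fold change was -0.06 in controls and 3.90 in dosed rats, a difference of 3.96 (SE 0.48, limma adjusted p = 0.00442). Its size and call depend on the floor: the difference was 1.90 (adjusted p = 0.548) with a floor 4 times higher and 4.77 (adjusted p = 0.161) with one 4 times lower. Tsku, a secreted leucine-rich protein of the liver, showed opposite orders without passing. It was at the floor in the 3 young controls and read 193, 209 and 68.0 in old controls, while dosed rats read 348, 263 and 387 at 4 and 96.9, 173 and 75.3 at 24 months. The difference was -3.73 (SE 0.64, adjusted p = 0.0825). N4bp2l1, which rose in controls, was at the floor in the 3 dosed rats of 24 months (difference -0.89, adjusted p = 0.073).

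**Figure D4:**
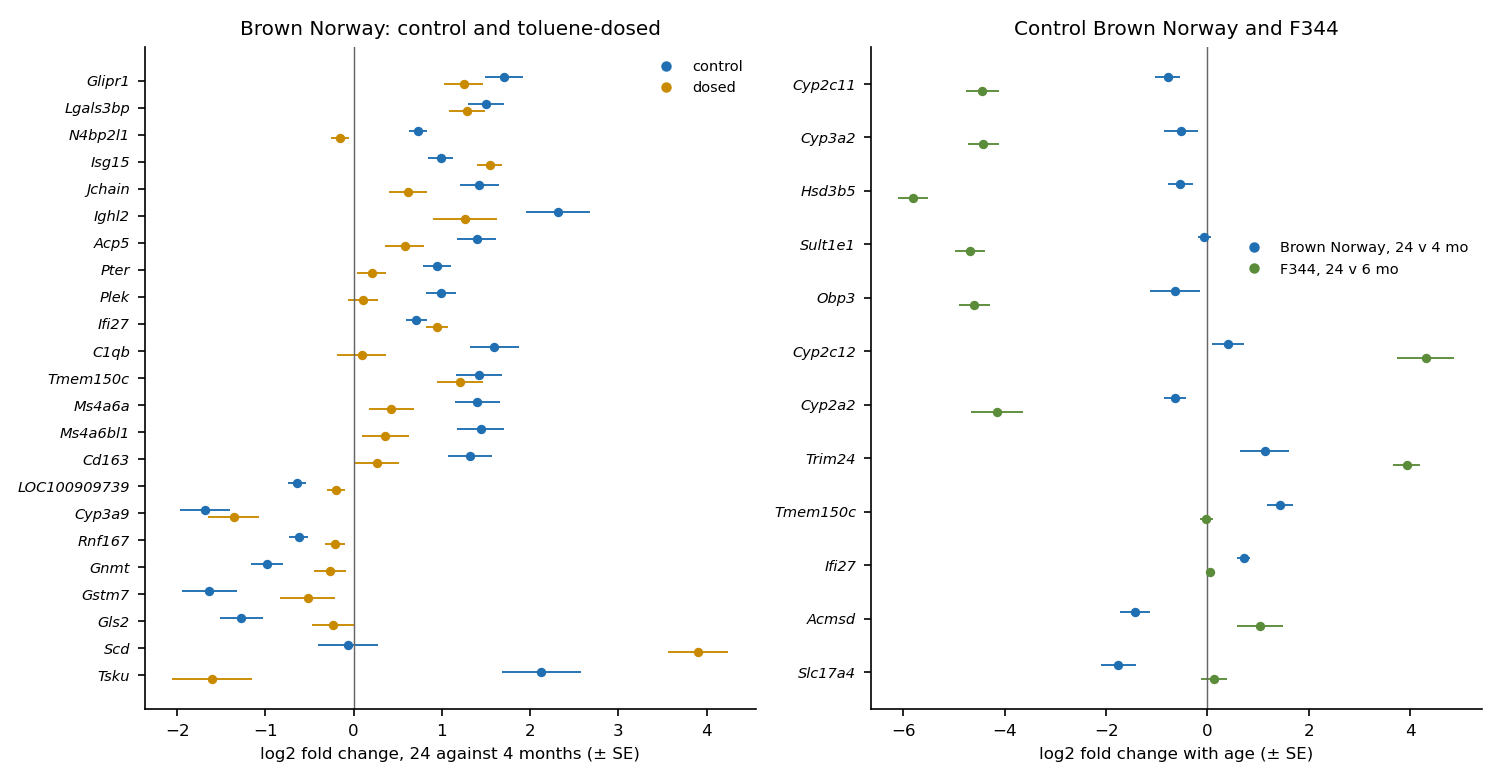
Log2 fold change with age (points) and its standard error (bars). Left, the 21 genes that passed in control rats with Scd and Tsku, in control and toluene-dosed Brown Norway rats; right, 12 genes whose age effect differed between strains, in Brown Norway and F344 controls. Scd has 3.90 in dosed and -0.06 in control rats, and Hsd3b5 -5.81 in F344 and -0.54 in Brown Norway rats.

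The age effect was also set against that of F344 rats of 24 and 6 months, where 682 of 9214 genes, or 7.4%, passed. The young ages, the housing and the overall signal of the arrays differ between the strains, so that only changes with age were compared. In these F344 rats the GAPDH ratio was 1.66 to 4.35 at 6 and 1.38 to 2.17 at 24 months. The part of this ratio was not tested. Of 7964 genes measured by the same probe set in both, 38, or 0.477%, had different age effects. The count was 25 without replicate 1 of the 4-month Brown Norway controls and 24 without replicate 2 of the 24-month F344 rats. Genes of the male pattern led them. Cyp2c11, the main male-specific P450, read 5063, 4742 and 4956 in Brown Norway rats of 4 months and 2129, 4296 and 2524 at 24 months (log2 fold change -0.79, limma adjusted p = 0.176). In F344 rats it fell from 5855 ± 299 to 316 ± 191 (SD, n = 4), and the difference between the strains was 3.65 (SE 0.40, adjusted p = 7.22e-07). The steroid dehydrogenase Hsd3b5 read 3409, 3255 and 4125 against 3348, 2994 and 1501, and the urinary carrier protein Obp3 2796, 3898 and 3758 against 3327, 3040 and 1066. Replicate 3 of 24 months was low in both, and in Cyp3a2, at 1886 against 3754 and 4743 in the other old rats. It was also the rat with a signal of 249.8 for Trim24, a transcriptional cofactor that was 45.7 and 37.9 in the other old rats and reached 674 ± 108 (SD, n = 4) in old F344 rats. The estrogen sulfotransferase Sult1e1, with 4084 in that rat, was not low there. Of 17 male-dominant genes 0 passed in limma in Brown Norway controls and 8 had an unadjusted p under 0.05, against 11.6% of all genes. In controls 6, or 35.3%, were lower without overlap (6.02% of all genes), and in dosed rats 10 were (6.78% of all genes). Their median in controls was -0.64, and -0.18 without replicate 3 of 24 months. Relative to the 4-month controls, the mean log2 signal of the list was -0.75, -0.31 and -1.47 in the 3 old controls. In the old dosed rats it was -0.72, -0.43 and -0.30. In F344 rats 13 of the 17 fell, where 2.96% of all genes fell (median -3.78). The list was chosen with that fall known. Cyp2c12, the female-specific P450, was 111 at most on the 6 Brown Norway arrays and reached 6437 ± 783 (SD, n = 4) in old F344 rats.

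Outside the male pattern, the difference between the strains also passed for other genes, of which Tmem150c, Ifi27, Acmsd and Slc17a4 were picked for description. Several genes not described had smaller adjusted p-values. Among them were Serpinb9b (difference -3.52, adjusted p = 2.24e-05), Apon (1.73, adjusted p = 0.00203), Fmo5 (-1.42, adjusted p = 0.00467) and Abcc9 (2.17, adjusted p = 0.00664). Tmem150c rose in Brown Norway rats (log2 fold change 1.42), where F344 rats had -0.02 (difference 1.45, SE 0.29, adjusted p = 0.0174). Ifi27 had 0.71 and 0.05 (adjusted p = 0.0419), with F344 signals of 4360 to 5227 at 6 and 4710 to 5344 at 24 months. Acmsd, the decarboxylase that steers tryptophan away from NAD synthesis, read 166, 191 and 193 against 74.5, 93.9 and 45.5 in Brown Norway rats (log2 fold change -1.42) and had 1.03 in F344 rats (adjusted p of the difference 0.0293). The organic anion transporter Slc17a4 had -1.76 and 0.13 (adjusted p = 0.0409). Acmsd and Slc17a4 did not pass in Brown Norway controls alone (limma adjusted p = 0.0631 and 0.055). Several of these differences were lost under alternatives: that of Ifi27 passed in 13 of 26 (adjusted p up to 0.217), Slc17a4 in 13 (up to 0.348), Acmsd in 15 (up to 0.142) and Tmem150c in 22 (up to 0.518), and with a floor 4 times higher those of Slc17a4, Acmsd and Tmem150c shrank to -0.72, -1.30 and 0.39. For Cyp3a9 the log2 fold changes were -1.68 and -0.04, and their difference of -1.65 (SE 0.42) had an adjusted p of 0.0784. Immune lists also had positive medians in F344 rats, where 7.4% of all genes passed in either direction. Of 8319 genes tested in both strains, 361 rose and 267 fell in F344 rats. There 11 of 37 interferon genes rose and 0 fell (median 0.35). Of 25 macrophage genes 13 rose (0.71), and of 8 MHC class II genes 5 rose (1.14). Of 5 genes of the B-cell and plasma-cell list 0 rose and 1 fell (0.89).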

How the data were processed

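Liver RNA was measured on Affymetrix Rat 230 2.0 arrays. The authors deposited linear intensity per probe set, and the submitters' processing notes name MAS5 and RMA without their role. Scale between arrays was left as deposited. Of 24946 probe sets 17584 had 1 gene symbol in the platform annotation, 393 several and 6916 none, and each gene took its probe set of highest mean. Signals were floored at 32, log2 was taken, and genes above the floor on at least 3 Brown Norway arrays (4 F344 arrays) were tested with limma 3.58.1 in R 4.3.3, with 6 group means over 18 Brown Norway arrays and Benjamini-Hochberg adjustment at 0.05. The difference between strains came from the separate estimates and their standard errors. Each array is a separate rat; exact permutation of 3 against 3 cannot go below p = 0.1. A fold against arrays at the floor is a lower bound. Lists of genes, 42 in number, were described by counts and medians alone. The members and lists were chosen with earlier results of these data known.

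Genes named were the 12 of largest change each way among genes that passed without overlap, the 4 of smallest p in each list, and a fixed set. Others (N4bp2l1, Pter, Tsku, Scd, Gpnmb, Cd68, Clec4f, Irf7, Oas1a, Bhmt, Uroc1, Rpl3, Idi1, Acmsd, Slc17a4 and members counted in full) were chosen after their values were seen. Motifs were searched in RefSeq promoters of build GRCr8, matched by Entrez gene identifier. The test was tested on simulated data. The alternatives tried were floors 4 times lower and higher, no filter, genes above the median signal, single or averaged probe sets, quantile or median scaling again, a variance trend, array weights, smaller fits, a 2-fold minimum, 1 fit over both strains and each array left out.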

Additional observations from a re-analysis of the deposited data

Results flagged for a closer look

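Results that differed between groups by a test of the difference stand out first. The age effect of Scd was larger in toluene-dosed than in control Brown Norway rats by 3.96 on the log2 scale, which became 1.90 and did not pass with a floor 4 times higher. Between the strains, the age effect in Brown Norway controls minus that in F344 rats was 3.65 for Cyp2c11, 3.89 for Cyp3a2, 5.27 for Hsd3b5, 4.62 for Sult1e1, 3.96 for Obp3 and 3.503 for Cyp2a2, genes of the male pattern. It was -3.89 for Cyp2c12 and -2.80 for Trim24, which are higher in female liver. It was 1.45 for Tmem150c and 0.66 for Ifi27, and -2.46 for Acmsd and -1.88 for Slc17a4. The differences of Ifi27 and Slc17a4 passed in 13 of 26 alternatives, that of Acmsd in 15, that of Tmem150c in 22 and that of Trim24 in 19 of 24. In those strain genes no F344 array stood apart from its group of 4 by Dixon's test, and groups of 3 were not examined.

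Signal also lay in probe sets that carry no single gene symbol and so entered no comparison above. Taken one by one in limma, 17 of 2756 passed in controls (0.617%, against 43 of 13972, or 0.308%, of all probe sets tested), 14 higher and 3 lower at 24 months. The largest change was that of 1388272_at, from a mean signal of 35.9 to 524 (log2 fold change 3.86, limma adjusted p = 3.61e-05).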

How the results depend on the processing

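No direction turned for the 21 genes that passed or for the medians of 10 lists under the alternatives in which they were recomputed, while the counts moved. The median of the drug and bile acid transporters, recomputed in 1 setting alone, went from 0.00 to -0.13 without replicate 2 of the 4-month controls. In controls 13 of the 21 genes passed with a 2-fold minimum, 6 with a 4 times higher floor, 9 with no filter, 43 of the probe sets taken singly, 40 with a variance trend, and 0 with only the compared groups or only the 9 controls (801 with an unadjusted p under 0.05). Leaving out single arrays gave 0 to 134. In dosed rats, where 23 passed, the same settings in that order gave 15, 12, 12 and 46; 14 passed above the median signal, 156 with array weights, 2 with only those groups, and 6 to 14 with an array left out. For the difference between dosed and control rats, 0 genes passed with floors 4 times lower and higher and above the median signal (559, 243 and 307 with an unadjusted p under 0.05), 3 with no filter and with array weights, 2 with the mean of probe sets and with a variance trend, and 1 to 2 with an array left out. The strain difference gave 19 with only the compared groups and 24 to 56 with an array left out. The median log2 fold change of the interferon list was 0.53 with the lower floor and 0.53 above the median signal. With an array left out, that of male-dominant genes was -0.81 to -0.18 and of cytochromes P450 -0.22 to -0.087. Among the genes, Glipr1, Isg15, Lgals3bp and N4bp2l1 passed in 5 of the 6 fits with 1 array left out. The cause of these changes was not tested. No paired analysis was possible because the labels give each rat its own number and share none between ages.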

Other observations

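Other probe sets without a single gene symbol were high in abundance. Probe set 1387902_a_at had a mean signal of 1292 at 4 and 4719 at 24 months (log2 fold change 1.87) and 1370394_at 159 and 2142 (3.74). In the other direction, 1371076_at had 1614 and 422 (-1.94).

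RNA of some genes of the MHC class I pathway, which supplies peptides to most cells' surface, was higher. Its list shares Psmb8, Psmb9 and Tap1 with the interferon list. Of 16 tested genes 7, or 43.8%, were higher without overlap, against 6.72% of all genes, and 0 passed. The median log2 fold change was 0.40 in control and 0.29 in dosed rats. Psme1, a subunit of the proteasome activator, read 1333, 1291 and 1315 against 1956, 1639 and 1724. Collagen Col3a1 of stellate cells read 980.4, 732 and 710.5 against 502, 191 and 312 without passing (log2 fold change -1.36, limma adjusted p = 0.167). Other genes of the stellate list, whose median was -0.04, lay on the other side: the proteoglycan Dcn had 1.96, and the protease inhibitors Timp1 and Timp2 1.17 and 0.66, each higher without overlap and none passing.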
